A study of Rattus norvegicus with 20 samples.

Results

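IsomiRs with 3′ uridine tails are miRNA reads that end in 1 to 3 uridines annotated as added to the miRNA rather than copied from its precursor. They were examined in small RNA libraries from the adBNST of 20 rats, the anterodorsal part of the bed nucleus of the stria terminalis, a region of the extended amygdala. A read was counted as U-tailed when it had no mismatch to its miRNA and its added 3′ bases, as the deposited files annotate them, were T only (U in the RNA). This rule took 3331 of 67859 pairs of a distinct sequence and a miRNA, and 26530 pairs had no mismatch. U-tailed reads were found for 446 of the 612 miRNAs that had reads without a mismatch, and they made up 5.72% of those reads. For each miRNA and library, the U-tailed share is the percent of its reads without a mismatch that were U-tailed.

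All rats were Sprague-Dawley, weaned on postnatal day 21, and taken at 9 weeks of age after a test on the elevated plus maze, which measures anxiety-like behaviour. Socially isolated (SI) rats had lived singly for 6 weeks, and group-housed (GH) rats had lived with littermates of their own sex over that time. There were 5 libraries in each of the 4 groups, GH male, SI male, GH female and SI female, and each library is named here by its group and the number in its label. The adBNST was punched from frozen brain, so each library mixes all cell types of the punch. The libraries held 3428930 to 11383055 miRNA reads, and between 195247 and 606271 of them were U-tailed. Marker miRNAs of neurons (miR-124-3p, miR-9a-5p and miR-128-3p) made up 6.86% to 17.9% of the reads without a mismatch, with the lowest value in SI female 16, and the oligodendrocyte markers were at 0.231% to 0.587% (miR-219a-2-3p) and at 0.0306% or less (miR-338-3p). The choroid plexus marker miR-204-5p was uneven, at 0.0770% to 1.68%, with the highest values in SI male 20 (1.68%) and GH female 17 (0.658%). For both SI rats numbered I17, SI male 17 and SI female 17, the labels and the names of the deposited files give opposite sexes. The labels were followed, so 1 library in each SI group may be of the other sex.

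Uridines are added to the 3′ ends of miRNAs and their precursors by terminal uridylyltransferases, chiefly TUT4 and TUT7. A single U on a let-7 precursor with a short 3′ overhang helps Dicer to cut it, whereas a longer U tail marks the precursor for decay. The 3p arm carries the 3′ end of the precursor, so a U added before Dicer cutting stays on the 3p miRNA, and a U on a 5p miRNA must have been added after cutting. Uridines on mature miRNAs have been linked to loss of activity, as for miR-26, and to changed target choice.

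The miRNAs with the largest U-tailed shares or the most U-tailed reads differed in which base the tail followed. Each pair of lines gives the mature miRNA from RefSeq with its seed (bases 2 to 8) in capitals, and then its most counted U-tailed form with the tail in capitals, all 5′ to 3′. Mature positions are on GRCr8.
let-7b-3p: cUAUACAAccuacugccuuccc
let-7b-3p, U-tailed: cuauacaaccuacugccuuccU
let-7a-1-3p: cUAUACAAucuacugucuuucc
let-7a-1-3p, U-tailed: cuauacaaucuacugucuuucU
miR-143-3p: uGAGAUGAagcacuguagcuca
miR-143-3p, U-tailed: ugagaugaagcacuguagcucU
miR-3547: uGAGCACCaccccucucucagau
miR-3547, U-tailed: ugagcaccaccccucucucagU
miR-652-3p: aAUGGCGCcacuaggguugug
miR-652-3p, U-tailed: aauggcgccacuaggguugugU
miR-148b-3p: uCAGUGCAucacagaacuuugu
miR-148b-3p, U-tailed: ucagugcaucacagaacuuuguU
miR-324-3p: cCACUGCCccaggugcugcugg
miR-324-3p, U-tailed: acugccccaggugcugcuggU
miR-9a-5p: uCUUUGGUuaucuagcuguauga
miR-9a-5p, U-tailed: ucuuugguuaucuagcuguaugU
miR-26a-5p: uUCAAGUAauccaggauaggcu
miR-26a-5p, U-tailed: uucaaguaauccaggauaggcuU

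In let-7b-3p, let-7a-1-3p and miR-143-3p the U took the place of the last base of the mature miRNA, after a read shortened by 1 base, whereas in miR-652-3p, miR-148b-3p and miR-26a-5p it followed the complete mature end. The form of miR-324-3p also began 2 bases inside the mature 5′ end, and this single form held 69.1% of the U-tailed reads of that miRNA. let-7b-3p lies at chr7:118684098-118684119 on the plus strand, outside any annotated protein-coding gene. miR-143-3p lies at chr18:57371373-57371394 on the minus strand, inside the non-coding gene Carmn. miR-652-3p (chrX:111140129-111140149, plus strand) lies inside the protein-coding gene Tmem164, miR-148b-3p (chr7:136299930-136299951, plus strand) inside Copz1, and miR-26a-5p (chr8:127633063-127633084, plus strand) inside Ctdspl.

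Some sequences annotated as U-tailed were held in full by a rat hairpin, so that the added U was in a precursor after all. Of the 419 rat hairpins of RefSeq, some held 42 such forms of 14 miRNAs, and these forms had 1280515 reads, or 17.7% of all U-tailed reads. The 4 most counted are shown, with the U called as a tail in capitals.
miR-128-3p, in Mir128-1: ucacagugaaccggucucuuuU
miR-92a-3p, in Mir92a1: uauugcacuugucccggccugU
miR-27a-3p, in Mir27b: uucacaguggcuaaguucU
miR-7a-5p, in Mir7-1: uggaagacuagugauuuuguuguuU

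These miRNAs lost most of their U-tailed reads when such forms were counted as other reads, a setting chosen after the data were seen. The mean U-tailed share of miR-128-3p, a neuronal miRNA, was 17.2% ± 1.22 (SD, n = 20 here and for the shares that follow) with these forms and 0.834% ± 0.123 without them. For miR-92a-3p, of the miR-17-92 clusters, it was 68.9% ± 4.63 with and 1.01% ± 0.568 without. For miR-27a-3p it was 69.9% ± 6.03 with and 1.37% ± 0.813 without, and its leading form is equally a shortened read of the hairpin Mir27b. For miR-7a-5p, a neuroendocrine miRNA, it was 0.303% ± 0.0514 with and 0.0326% ± 0.0177 without. In let-7a-5p such forms held 77.6% of the U-tailed reads, in miR-138-5p 88.4% and in miR-129-2-3p 98.7%. A match to the rat genome outside these hairpins was not examined, and where the next precursor base is itself U, a U added at the mature end is read as precursor sequence.

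Tails were short. A tail of 1 U made up 91.0% of the U-tailed reads, a tail of 2 U 7.12%, and a tail of 3 U, the longest annotated, 1.91%. The tail followed the reference 3′ end in 50.5% of the U-tailed reads, a shortened end in 30.8% and an extended end in 18.7%. In U-tailed reads of no hairpin, the base before the tail was G in 32.9%, U in 31.2%, C in 24.3% and A in 11.7%. Reads without an addition ended in U in 68.3% and in G in 12.2%, and in A-tailed reads the base before the tail was U in 51.6% and G in 21.6%. U-tailed reads of no hairpin were 23.0 bases long on average, against 21.9 bases for reads with no addition and 22.7 bases for A-tailed reads.

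Uridine and adenine were the bases added most often. Single added U made up 4.36% to 5.91% of the reads without a mismatch in the 20 libraries, single A 5.09% to 6.05%, single C 0.210% to 0.294% and single G 0.149% to 0.237%. The authors' adapter trimming also removed poly(A), which bears on the A-tailed values. The U-tailed share was above the A-tailed share in 92 of the 241 miRNAs tested, which included 62 of the 118 from 3p arms and 21 of the 103 from 5p arms. Across these 241 miRNAs the U-tailed and A-tailed shares had a Spearman rho of 0.266, a description across miRNAs that share libraries and depth.

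Of the 3331 U-tailed pairs, 257 were in all 20 libraries and 1152 in 1 library only. A miRNA was tested when it had at least 50 reads without a mismatch in every library and at least 100 U-tailed reads over the 20 libraries. This left 241 miRNAs, 118 from 3p arms, 103 from 5p arms and 20 with no arm in the name, which held 99.6% of the U-tailed reads. They had 1 to 63 U-tailed forms each, with a median of 10, and in 185 of them a single form held over 50% of the U-tailed reads. The U-tailed reads were concentrated in few miRNAs. miR-128-3p held 12.9% of a library's U-tailed reads on average, the mural-cell miRNA miR-143-3p 10.4%, the neuronal miRNA miR-9a-5p 8.60%, miR-26a-5p 5.74%, miR-92b-3p 5.08% and miR-92a-3p 3.50%, so that these 6 held 46.2%. Forms found in hairpins made up 95.1% of the U-tailed reads of miR-128-3p and 98.4% of those of miR-92a-3p.

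The share varied from under 0.05% to over 80% between miRNAs, with a median of 4.71%. It was 50% or more in 9 miRNAs, 20% to 50% in 22, 10% to 20% in 33, 5% to 10% in 50, 1% to 5% in 82 and under 1% in 45. The highest mean shares, apart from those of miR-27a-3p and miR-92a-3p above, were those of miR-3547 (87.6% ± 8.43), let-7b-3p (83.3% ± 3.73), let-7a-1-3p (61.8% ± 10.1), miR-652-3p (59.4% ± 3.68), miR-143-3p (58.0% ± 2.57) and miR-3102 (53.2% ± 8.12). miR-702-3p (46.9% ± 5.72), miR-324-3p (46.4% ± 7.44) and miR-148b-3p (43.9% ± 4.49) followed. The names let-7a-1-3p and let-7c-2-3p carry the same reads and cannot be told apart. The SDs overlap for many neighbours in this order, for example let-7a-1-3p, miR-652-3p and miR-143-3p. miR-143-3p had 1207213 reads without a mismatch over the 20 libraries, whereas miR-3547 had 7182, and the shares of the latter rest on few reads in each library.

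The let-7 guide strands, which share the seed GAGGUAG, fell into low and higher shares. The mean share was 0.0185% ± 0.0116 for let-7f-5p, 0.0225% ± 0.0313 for let-7d-5p and 0.0418% ± 0.0182 for let-7g-5p, the lowest of the 50 most counted miRNAs. It was 0.103% ± 0.0263 for let-7c-5p and 0.173% ± 0.0416 for let-7a-5p. It reached 2.76% ± 0.338 for miR-98-5p, 3.62% ± 0.369 for let-7b-5p, 7.17% ± 1.36 for let-7i-5p and 8.21% ± 0.622 for let-7e-5p. The annotation limits these values, since a U added at the mature end is read as precursor sequence where the next precursor base is U. In extended forms the next base was U for let-7a-5p, let-7b-5p, let-7c-5p, let-7d-5p and let-7g-5p, and G for let-7e-5p and let-7i-5p. How far this limit shaped the low and higher shares was not tested. The most counted U-tailed forms of a guide strand with a high share and of one with a low share are shown, with the tail in capitals.
let-7i-5p, U-tailed: ugagguaguaguuugugcuguuU
let-7f-5p, U-tailed: ugagguaguagauuguauaUUU
The form of let-7i-5p is the complete mature miRNA with 1 added U. That of let-7f-5p is annotated as lacking the last 3 mature bases and carrying a tail of 3 U. It had 603 reads over the 20 libraries. It is as long as the mature miRNA and differs from it at 1 base, where G is read as U. A read with 1 changed base would look the same, and the origin of the form was not tested.

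The passenger strands listed here for class II let-7 precursors, those with the short 3′ overhang, also differed among themselves. let-7a-1-3p and let-7c-2-3p were in neither the class II nor the class I list. Besides let-7b-3p, 5337 of the 6194 reads of miR-98-3p were U-tailed, 580 of 673 for let-7f-1-3p and 408 of 441 for let-7f-2-3p, all summed over the libraries. By contrast, the share was 1.48% ± 0.591 for let-7d-3p, and 42 of 3902 reads were U-tailed for let-7i-3p and 23 of 248 for let-7g-3p. The 3 class I passenger strands had 12.1% ± 8.67 (let-7e-3p), 9 of 209 reads (let-7a-2-3p) and 2 of 2286 reads (let-7c-1-3p). Among the let-7 passenger strands described here, most reads were U-tailed in the 5 with the seed UAUACAA (let-7b-3p, let-7a-1-3p, let-7c-2-3p, let-7f-1-3p and miR-98-3p) and in let-7f-2-3p.

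Other groups known for uridylation differed widely in share, and miR-702-3p and miR-324-3p were among the 12 miRNAs with the highest mean shares. The share was 5.38% ± 1.06 for miR-26a-5p and 5.66% ± 0.991 for miR-26b-5p. miR-324, whose Dicer cutting is known to shift with uridylation, had 46.4% in the 3p arm and 3.60% ± 3.61 in the 5p arm. Of 15 names listed for mirtrons, which come from short introns without Drosha, 4 were measured and 3 tested. miR-702-3p was at 46.9%, miR-1224 at 14.3% ± 4.52 and miR-877 at 7.22% ± 5.79, and 38 of 448 reads of miR-702-5p were U-tailed. Of 7 miRNAs listed for target-directed degradation, in which an extensively paired target triggers decay of the miRNA, 6 were tested, with a median share of 0.848% against 4.71% over all miRNAs. They were miR-7a-5p (0.303%), miR-7b (0.370% ± 0.124), miR-30b-5p (0.725% ± 0.921), miR-30c-5p (0.970% ± 0.216), miR-222-3p (5.34% ± 0.818) and miR-221-3p (14.7% ± 1.80). In extended forms the next base was U for miR-7a-5p, miR-7b and miR-30c-5p, so a U added at their mature end is read as precursor sequence. How far this limit lowered the median of the list was not tested. miR-29b-3p, which was not tested, had 194 U-tailed of 36618 reads.

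miRNAs from 3p arms had larger U-tailed shares than those from 5p arms in all 20 libraries. The median share over the miRNAs of an arm was 6.94% for the 118 from 3p arms and 2.90% for the 103 from 5p arms. Within a library, the median of 3p miRNAs exceeded that of 5p miRNAs by 4.02 percentage points ± 0.968 (SD, n = 20), from 2.12 to 6.06, and a sign-flip permutation test over libraries gave p = 1e-05, the smallest that 100000 resamples can give (two-sided). Of the 9 miRNAs with a share of 50% or more, 7 were from 3p arms and none carried 5p in its name. Among these 7, let-7a-1-3p and let-7c-2-3p carry the same reads. Without the forms found in hairpins, miR-27a-3p fell to 1.37% and miR-92a-3p to 1.01%. Counting the forms found in hairpins as other reads left a difference of 3.38 points, also in 20 of 20 libraries.

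In 43 precursors both arms were tested, and the 3p arm had the larger mean share in 30 of them. The median difference between arms of a precursor was 2.07 points ± 0.908 (permutation p = 2e-05). The 3p arm was higher in every library for 11 precursors, of which those with the largest differences were let-7b (83.3% against 3.62%), miR-324 (46.4% against 3.60%), miR-135a (22.0% against 0.623%), miR-423 (18.9% against 0.721%) and miR-127 (19.8% against 2.11%). The 5p arm was higher in every library for 5 precursors, miR-674 (19.6% against 3.29%), miR-323 (11.2% against 0.378%), miR-361 (5.28% against 0.550%), miR-485 (4.93% against 0.231%) and miR-9a (6.69% against 4.87%).

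The share was also lower where the next base of the precursor is U, which the annotation in part builds in. There, a U added at the mature end is read as precursor sequence and cannot be called a tail. The median part of a miRNA's U-tailed reads whose tail followed the reference 3′ end was 0% there, against 54.2% where the next base is another one. In the 83 miRNAs whose next hairpin base is U, the median share was 2.11%, against 6.35% in the 153 whose next base is another one. Among the 3p miRNAs these medians were 1.93% and 9.96%, and among the 5p miRNAs 2.17% and 3.61%. Where the next base was not U, the within-library difference between arms was 6.15 points ± 1.02.

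The study asked whether isolation in adolescence changes adBNST miRNAs and whether it does so alike in males and females. The total U-tailed share of a library did not separate the housing groups in either sex. In GH males it was 5.50% (rat 18), 5.67% (21), 5.76% (16), 5.82% (19) and 5.92% (20), and in SI males it was 5.35% (19), 5.45% (15), 5.61% (17), 5.62% (22) and 5.90% (20). In GH females it was 5.77% (15), 5.81% (17), 5.89% (12), 6.18% (16) and 6.51% (13), and in SI females it was 4.89% (16), 5.55% (14), 5.72% (17), 5.99% (12) and 6.04% (10). The groups overlapped in both sexes. The mean was 5.73% ± 0.159 (SD, n = 5) in GH males and 5.58% ± 0.210 in SI males, a difference of -0.151 percentage points (exact permutation test, two-sided, p = 0.238). It was 6.03% ± 0.312 in GH females and 5.64% ± 0.465 in SI females, a difference of -0.395 points (exact p = 0.167). Over both sexes, with housing labels permuted within sex, the difference was -0.273 points (exact p = 0.0532, 0.319 after adjustment over the 6 comparisons of this measure). The housing effect did not differ detectably between the sexes (difference of -0.244 points, exact p = 0.402), nor did females and males within GH (0.296 points, exact p = 0.111) or within SI (0.0520 points, exact p = 0.825). The smallest p that 5 against 5 allows is 0.00794. Counting error was small beside the spread between rats, with 95% Wilson intervals of at most ± 0.0251 points per library. These intervals and those of single miRNAs cover counting error only, since reads were not reduced to molecules.

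This measure depended on which forms and which miRNAs were counted. With the forms found in hairpins counted as other reads, the difference was -0.217 points in males (exact p = 0.135), -0.455 in females (exact p = 0.0317, 0.0952 after adjustment over 6) and -0.336 over both sexes (exact p = 0.00680, 0.0408 after adjustment over 6). With each miRNA held at its mean part of the reads over the 20 libraries, the differences became 0.171 points in males, -0.0757 in females and 0.0476 over both sexes (exact p = 0.600 over both). With both changes together the difference over both sexes was 0.0186 points. The sum of the mural-cell miRNAs miR-143-3p and miR-145-5p, of which miR-143-3p is mostly U-tailed, moved with housing. Nearly all of it was miR-143-3p, at 0.170% to 2.36% of the reads, against 0.00157% to 0.0240% for miR-145-5p. No other sum of cell-type markers was tested against housing. The mural-cell sum ranged from 0.951% to 1.63% of the reads among the GH males and from 0.411% to 0.631% among the SI males. Among the GH females it ranged from 1.21% to 2.38% and among the SI females from 0.172% to 1.43%, which gave a mean difference of -0.780 points over both sexes (exact p = 0.000126). In a punch of mixed cells, fewer cells of a type and less of its RNA per cell cannot be told apart. SI female 16 had the lowest level of these miRNAs, the lowest neuronal marker level and the lowest U-tailed share of all, and without it the difference between female groups was -0.207 points.

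The share of single miRNAs was tested in 1 edgeR quasi-likelihood model of U-tailed and other reads over all 20 libraries, with Benjamini-Hochberg adjustment over the 241 miRNAs. The fold change in what follows is on the log2 scale and is the change in the ratio of U-tailed to other reads, SI over GH. In males 1 miRNA changed (0.415% of those tested), in females 1 (0.415%), and over both sexes 5 (2.07%). By unadjusted p, 25, 24 and 39 miRNAs were under 0.05, and DESeq2 called 11, 5 and 23 while limma called 0, 0 and 1. The count depends on the tool, and the 5 miRNAs are described below in the order of their p over both sexes. miRNAs named by their p were picked from these same shares, so groups without overlap add no separate support. How many of the 241 had no overlap is not given here.

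miR-218a-5p, a miRNA enriched in motor neurons and encoded within Slit2 and Slit3, rose in U-tailed share. In GH males its share was 4.37%, 4.61%, 4.63%, 4.98% and 6.18%, and in SI males it was 6.21%, 6.99%, 8.67%, 9.31% and 10.02%. In GH females it was 3.96%, 4.44%, 5.15%, 5.25% and 5.29%, and in SI females 5.33%, 5.71%, 5.91%, 7.72% and 8.48%. Every SI rat was above every GH rat of its sex, by a narrow margin at the nearest pair in each sex. The log2 change was 0.77 ± 0.17 (SE) in males (edgeR adjusted p = 0.0477), 0.47 ± 0.17 in females (adjusted p = 0.262) and 0.62 ± 0.12 over both sexes (adjusted p = 0.0117). Its leading form carries 1 U after a read extended by 1 base, with the tail in capitals.
miR-218a-5p: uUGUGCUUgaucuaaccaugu
miR-218a-5p, U-tailed: uugugcuugaucuaaccaugugU
The form is in no rat hairpin and held 81.4% of the U-tailed reads of the miRNA. Over both sexes the call held in all 9 alternatives tried and in all 20 fits with a rat left out. In males it held in 6 of 12 alternatives and in 7 of 20 fits with a rat left out, with adjusted p up to 0.207 among the latter.

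miR-129-5p, a neuronal miRNA, also rose in U-tailed share over both sexes. In GH males its share was 3.80%, 3.97%, 4.19%, 4.39% and 4.54%, and in SI males 4.83%, 4.99%, 5.26%, 5.48% and 6.06%. In GH females it was 3.85%, 3.93%, 4.25%, 4.29% and 4.33%, and in SI females 4.47%, 4.65%, 4.78%, 5.51% and 6.61%. The housing groups did not overlap in either sex. The log2 change was 0.35 ± 0.07 over both sexes (edgeR adjusted p = 0.0138), 0.37 ± 0.10 in males (adjusted p = 0.119) and 0.34 ± 0.10 in females (adjusted p = 0.231). The leading form lacks the last mature base and carries 1 U.
miR-129-5p: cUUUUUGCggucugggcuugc
miR-129-5p, U-tailed: cuuuuugcggucugggcuugU

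let-7i-5p, the let-7 guide strand with the complete end and 1 U shown above, rose over both sexes by 0.40 ± 0.10 on the log2 scale (edgeR adjusted p = 0.0413). Its share was 5.05%, 5.15%, 5.92%, 6.98% and 7.73% in GH males and 7.20%, 8.45%, 8.60%, 9.29% and 10.1% in SI males. It was 4.70%, 6.53%, 6.69%, 6.74% and 7.15% in GH females and 6.95%, 7.15%, 7.38%, 7.55% and 8.07% in SI females. The groups overlapped slightly in both sexes, and the call held in 8 of 20 fits with a rat left out. In neither sex alone did its share pass in edgeR.

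miR-26a-5p, a widely expressed miRNA whose uridylation is known to weaken its repression of targets, fell in U-tailed share over both sexes by 0.38 on the log2 scale (SE 0.09, edgeR adjusted p = 0.0413). Its share was 4.79%, 5.44%, 5.63%, 5.74% and 6.10% in GH males and 3.72%, 4.05%, 4.39%, 4.69% and 4.81% in SI males. It was 5.73%, 5.77%, 6.42%, 7.14% and 7.59% in GH females and 3.79%, 4.40%, 5.11%, 6.11% and 6.14% in SI females. The male groups overlapped only at their nearest pair and the female groups more widely, and the call held in 6 of 20 fits with a rat left out.

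miR-7a-5p fell in U-tailed share in females by 0.54 on the log2 scale (SE 0.12, edgeR adjusted p = 0.0465) and over both sexes by 0.32 (SE 0.08, adjusted p = 0.0465). Its share was 0.314%, 0.320%, 0.352%, 0.362% and 0.378% in GH females and 0.173%, 0.241%, 0.245%, 0.270% and 0.270% in SI females, without overlap. The male groups overlapped, with 0.264% to 0.361% under group housing and 0.269% to 0.335% under isolation. Most of these reads were the form found in Mir7-1. With such forms counted as other reads, the log2 change was -1.15 in females (edgeR adjusted p = 0.260) and -0.40 over both sexes (adjusted p = 0.573), so the calls were lost while the fitted changes were no smaller. With 1 rat left out, the call held in 4 of 20 fits in females and in 3 of 20 over both sexes.

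By list, over both sexes, 1 of the 9 let-7 guide strands rose in share (let-7i-5p), 1 of the 2 miR-26 members fell (miR-26a-5p) and 1 of the 6 tested miRNAs of target-directed degradation fell (miR-7a-5p), beside the 2.07% called over all miRNAs. None of the 3 let-7 passenger strands, the 3 mirtron miRNAs and the 2 arms of miR-324 tested in these lists passed.

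No miRNA differed in its housing effect between the sexes at an adjusted p under 0.05 in edgeR (0% of 241), with 14 at an unadjusted p under 0.05, and DESeq2 called 1. That miRNA was miR-770-5p, of the imprinted Meg3 gene, with a difference of the log2 changes (females minus males) of -0.79 ± 0.21 (edgeR adjusted p = 0.296, DESeq2 adjusted p = 0.0489). In males its share was 22.0% to 25.9% under group housing and 27.8% to 31.5% under isolation, without overlap. In females the same ranges were 23.9% to 33.6% and 18.3% to 29.02%, which overlap. The next lowest p were those of miR-125a-5p (-0.43) and miR-760-3p (-0.49), neither past the threshold. No miRNA differed between GH females and GH males (0% of 241, with 7 at an unadjusted p under 0.05 and 0 by DESeq2), where miR-146b-5p (2.07), miR-99b-5p (0.23) and miR-125a-5p (0.26) had the lowest p.

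The level of the U-tailed reads, as opposed to their share, was tested with 1 row for the U-tailed and 1 for the other reads of each miRNA, scaled by TMM to the library. In males 25 of 774 rows changed (3.23%), among them 6 of the 290 U-tailed rows, and in females 3 of 774 (0.388%), among them 1 U-tailed row. U-tailed let-7i-5p rose in SI males by 0.78 ± 0.21 on the log2 scale (edgeR adjusted p = 0.0424), whereas its other reads had a change of 0.22 ± 0.17 that did not pass (adjusted p = 0.535). U-tailed miR-129-5p rose in SI females by 0.98 ± 0.22 (adjusted p = 0.0375), and its other reads had a change of 0.64 ± 0.21 (adjusted p = 0.102). In the edgeR test of shares, let-7i-5p did not pass in males alone, nor miR-129-5p in females alone.

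For the other U-tailed rows that changed in males, the other reads of the miRNA had a value of the same sign. The edgeR test of shares compares U-tailed with other reads, and in males it called miR-218a-5p only, so none of these miRNAs. U-tailed miR-221-3p rose by 1.12 (other reads 1.05), and miR-486, which is abundant in blood, by 1.09 (other reads 0.75). U-tailed miR-143-3p fell by 1.24 (other reads -1.06), miR-423-3p fell by 0.85 (other reads -0.89) and miR-666-3p fell by 2.29 (other reads -1.32). Of these other reads, those of miR-221-3p and miR-423-3p passed the test of levels. The blood miRNAs miR-486 and miR-451-5p together made up 0.0964% to 0.143% of the reads in GH libraries and 0.136% to 0.339% in SI libraries, nearly all of it miR-486. The part of these cell-type markers in the changed levels was not tested.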

How the data were processed

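Small RNA libraries were made from 215 ng of total RNA per rat with the NEXTflex Small RNA-Seq kit v3 (22 PCR cycles). The authors trimmed adapters with cutadapt, annotated isomiRs with seqbuster against miRBase v21 within bcbio-nextgen, and deposited 1 table per library of distinct sequences with their read counts. Versions of these tools are not given in the sources used here. No sequence with under 2 reads was listed, so rare forms can be missed. The number of U-tailed forms did not simply follow depth. GH female 17, with 3602338 miRNA reads, had 1255 forms, and SI male 15, with 11383055, had 869. The mean number of forms was 1083 in GH males and 1225 in GH females. It was 888 in SI males and 802 in SI females, whose libraries had more reads on average. The bearing of this on the shares was not tested. Library totals counted each sequence once, whereas a sequence listed for several miRNAs was counted for each. Shares were tested with edgeR 4.0.16 (glmQLFit, glmQLFTest) in R 4.3.3 with a term for each library, with DESeq2 1.42.0 and limma 3.58.1 (pseudocount 0.5) as alternatives. Levels used rows with at least 10 counts in at least 5 libraries. The code was tested on simulated data. Single values per library were compared by exact permutation in Python 3.11.15 with numpy 2.4.6. The adjustment over 6 comparisons used scipy 1.17.1.

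Named miRNAs are the 12 with the largest shares, the 6 holding most U-tailed reads, the 3 with the lowest shares among the 50 most counted, up to 6 per comparison with the lowest p, and members of the lists. miRNAs named for hairpin forms, arm differences or levels were chosen after their values were seen. The members and lists were chosen with earlier results of these data known. Mature and hairpin sequences are from RefSeq (GRCr8), where 51 of the 53 named and 223 of the 241 tested miRNAs matched. No genome was used here. The labels do not tie rats to litters, and p-values measure the spread between these libraries.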

Additional observations from a re-analysis of the deposited data

Results flagged for a closer look

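In 112 groups of 5 rats, the gap of the most extreme rat to its nearest neighbour was compared with Dixon's 95% critical value, and 7 were past it, where chance gives about 1 in 20. The U-tailed share of miR-27a-3p was 59.5% in GH female 17 against 67.0% to 68.0% in the others of its group. That of let-7a-1-3p was 41.8% in GH female 15 against 58.9% to 60.7%. That of let-7i-5p was 4.70% in the same rat against 6.53% to 7.15%. That of miR-92a-3p was 72.0% in GH male 19 against 69.0% to 69.9%. That of let-7d-5p was 0.145% in GH male 16 against 0% to 0.0300%. In SI male 17 the share of miR-652-3p was 47.2% against 58.1% to 58.7%, and that of miR-3102 was 62.2% against 39.6% to 44.9%.

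Reads with a mismatch were outside the rule. Among them, U-only additions were 6.29% ± 0.299 in GH males and 6.94% ± 0.484 in SI males (SD, n = 5), a difference of 0.641 percentage points (exact permutation p = 0.0397, 0.238 after adjustment over 6), whereas in reads without a mismatch the difference was -0.151 points.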

How the results depend on the processing

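The total U-tailed share per library changed direction with the weighting of the miRNAs. Taking the median share over miRNAs turned the male difference to 0.0733 points, and fixing the miRNA composition turned it to 0.171 in males and 0.0476 over both sexes. Counting hairpin forms as other reads brought the unadjusted p under 0.05 in females (-0.455) and over both sexes (-0.336), of which the latter alone passed after adjustment over 6, and doing so at fixed composition gave 0.102 in males and 0.0186 over both sexes. With 1 rat left out, the difference ranged from -0.230 to -0.0916 in males, from -0.495 to -0.207 in females, from -0.323 to -0.179 over both sexes (5 of 20 past 0.05), from 0.177 to 0.362 for GH females against GH males, from -0.0486 to 0.240 within SI (reversed without SI male 19, SI female 12 at -0.0370 or SI female 10, at -0.00759 for the first) and from -0.344 to -0.0562 for the sex difference.

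Counts of miRNAs with a changed share (1 in males, 1 in females, 5 over both sexes) were 11, 5 and 23 by DESeq2 (1 for the interaction), 0, 0 and 1 by limma, and 4, 2 and 13 with at least 10 U-tailed reads in every library. They were 0 in males and 0 in females without a minimum of U-tailed reads, and likewise with only the 2 groups compared. They were 0 in males and 2 over both sexes against reads with no addition, 2 in females with tails of 1 U, 0 in females without hairpin forms, and 3, 2 and 3 with the 2 libraries numbered I17 exchanged. With 1 rat left out they ranged from 0 to 7 in males (7 without SI female 16), 0 to 2 in females and 2 to 8 over both sexes (8 without SI female 10), and stayed at 0 for the interaction and for GH females against GH males. Levels of U-tailed rows (6 in males, 1 in females) gave 22 and 15 calls by DESeq2, 4 in females without a count filter, 2 and 5 with I17 exchanged, and 0 to 26 in males (26 without SI female 16) and 0 to 18 in females (18 without SI female 10) with 1 rat left out. Causes of these changes were not tested.

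Rats of different housing share some numbers. The correlation of their deviations was -0.0154 and 0.135 in males and -0.115, -0.00311 and 0.0874 in females, so the numbers were not taken as pairs. In limma over these rats, the replicate block gave 0 calls in males and 0 in females, and the fit without the block 0 and 7. Over 9 alternatives, miR-218a-5p stayed past the threshold over both sexes in 9, miR-129-5p in 8, let-7i-5p in 7, miR-26a-5p in 6 and miR-7a-5p in 4, all in their direction. Below a share of 1% the median coefficient of variation between libraries was 111%, against 27.4% at 5% or more, and the precision was lower in rarely tailed miRNAs.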
